A study of Mus musculus with 6 samples.

Results

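The EGF-family ligands and the ErbB receptors were followed in mouse gonadal cells on 6 microarrays, each carrying 1 sample labelled with Cy5. The members were chosen by gene symbol, as every probe assigned to one of 10 listed genes. Of these, 9 had a named probe, 1 probe each, among 26423 probes on the array: the receptors Egfr, Erbb2, Erbb3 and Erbb4 and the ligands Egf, Tgfa, Hbegf, Ereg and Btc. No probe was assigned to the remaining ligand, Areg, and it was not analysed here. The filter on dim genes left 8 members for testing, all but Erbb4.

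All cells came from ICR mice, in 3 groups of 2 arrays, and each group pooled the cells of many animals. GSC colonies grew from testis cells of 80 pups aged newborn to P2, and PGC colonies from gonad cells of 67 embryos at E11.5. Both were plated on laminin at 200 ng/cm2 in MCDB-201 medium with insulin, transferrin, selenium and 10 ng/ml EGF, kept in 5% O2 for 7 days and picked as colonies. CD49f+ sorted cells were isolated magnetically from testes of 100 pups of the same age and lysed without culture, under the label physiological hypoxia. In the labels GSC stands for glandular stem cells, and PGC for primordial germ cells. Colony groups therefore differ from the sorted group in culture, added EGF, laminin, selection by CD49f and possibly oxygen together, and these cannot be told apart. For PGC colonies, age and source organ differ from the sorted cells as well. The PGC and GSC colonies differ in age and source organ, and the labels name no sex for the embryos.

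ErbB receptors are single-pass tyrosine kinases that pair on ligand binding and signal through the RAS, RAF, MEK and ERK cascade, PI3-kinase and STAT factors. EGFR binds EGF, TGF-alpha, amphiregulin, epiregulin, betacellulin and HB-EGF, ERBB3 and ERBB4 bind neuregulins, and ERBB2 has no known ligand and serves as a partner of the others. The ligands are made as membrane proteins and released by ADAM proteases. EGF is widely used in media for gonadal and germline cells.

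Median deposited intensity was 393 to 406 on sorted arrays and 541 to 606 on colony arrays. Germ cell markers were uneven. Of 14 listed genes, 5, 6 and 7 lay under the 30th percentile of both arrays in GSC colonies, sorted cells and PGC colonies. The germ cell helicase gene Ddx4 measured 10.25 ± 0.02, 9.99 ± 0.15 and 9.84 ± 0.17 on the normalized log2 scale in that order (SD, n = 2). Dazl, a germ cell RNA-binding gene, was under the 30th percentile on both PGC colony arrays. Itga6, which encodes CD49f, measured 12.18 ± 0.11 in sorted cells, 11.81 ± 0.07 in GSC colonies and 12.39 ± 0.07 in PGC colonies (SD, n = 2).

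**Figure D1:**
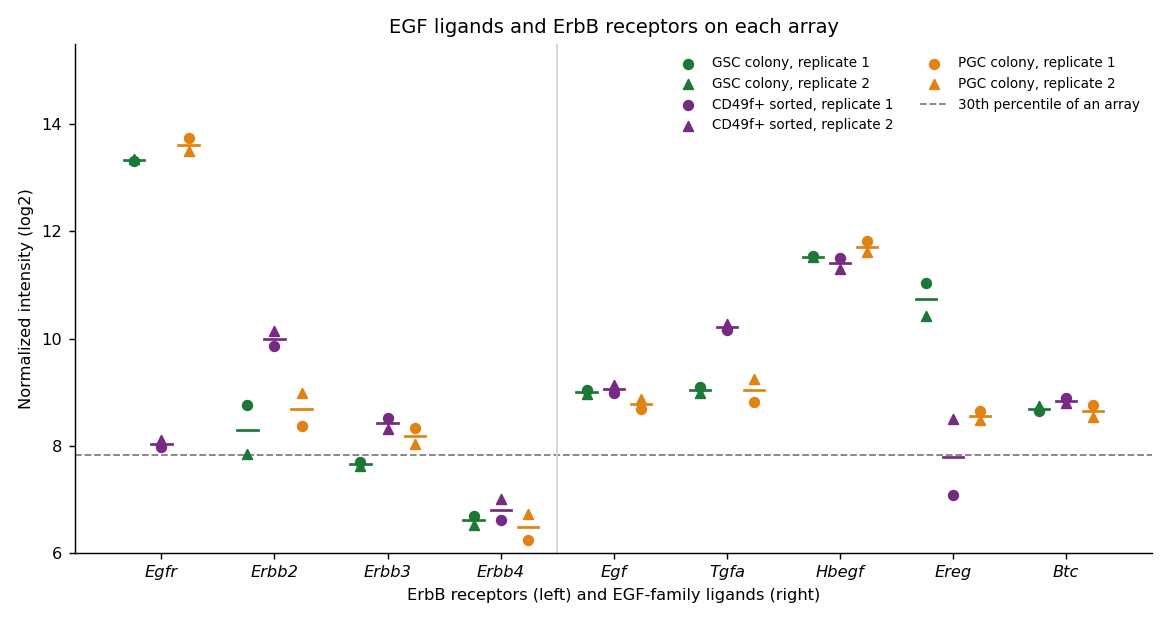
Normalized intensity (log2) of the 9 members with a probe on each of the 6 arrays. Points are arrays, horizontal bars are group means and the dashed line is the 30th percentile of an array, near 7.82. Egfr stood between 13.32 and 13.75 on the 4 colony arrays and at 7.97 and 8.10 on the sorted arrays.

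Receptor expression differed most at Egfr. The arrays of GSC colonies had deposited intensities of 11885 and 12616, those of PGC colonies 14903 and 12884, and those of sorted cells 150 and 167. On the normalized log2 scale the arrays read 13.32 and 13.35, then 13.75 and 13.49, then 7.97 and 8.10. Every colony array lay far above both sorted arrays, which were just over the 30th percentile. Egfr rose by 5.30 ± 0.13 (SE) in GSC colonies relative to sorted cells, a 39.4-fold difference (limma adjusted p = 2.3e-06), and ranked 34th by size of rise among 15459 genes. In PGC colonies it rose by 5.58 ± 0.13 over sorted cells, 48.0-fold (adjusted p = 3.9e-06), and ranked 12th. Across the settings tried these differences stayed between 5.23 and 5.97. The colony types stood 0.29 ± 0.13 apart, short of the threshold (adjusted p = 0.20), with a 95% interval of -0.03 to 0.60, although the groups did not overlap. In such bulk RNA, fewer cells of a type and less RNA per cell cannot be told apart.

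Erbb2 ran the other way. Sorted arrays read 9.86 and 10.14, GSC colony arrays 8.76 and 7.84, and PGC colony arrays 8.37 and 8.98. Both sorted arrays were above all 4 colony arrays, and the GSC colony pair was far apart, with deposited intensities of 459 and 176. The gene fell by 1.70 ± 0.34 in GSC colonies (limma adjusted p = 0.0068) and by 1.32 ± 0.34 in PGC colonies (adjusted p = 0.019). The second of these calls was lost without PGC colony replicate 1 (adjusted p = 0.12), without sorted replicate 2 (adjusted p = 0.091) and without normalization between arrays (adjusted p = 0.054). Between colony types the difference of 0.38 ± 0.34 had a 95% interval of -0.44 to 1.19, which spans 0.

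Erbb3, a receptor with little kinase activity of its own that depends on its partners, was dim throughout. It read 7.70 and 7.61 in GSC colonies, both under the 30th percentile, 8.53 and 8.31 in sorted cells, and 8.33 and 8.03 in PGC colonies. It was at least 1.51-fold lower in GSC colonies than in sorted cells (limma adjusted p = 0.0063), where the 30th percentile stands in for the dimmer group. Without normalization between arrays this call was lost (adjusted p = 0.057). PGC colonies and sorted cells overlapped, with a difference of -0.24 ± 0.15 (adjusted p = 0.24), and that between PGC and GSC colonies missed the threshold (adjusted p = 0.066).

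Erbb4, the second neuregulin receptor, was too dim for testing: its 6 arrays read 6.24 to 7.00, all under the 30th percentile. Its deposited intensity was 24.2 to 98.1, and the 3 groups overlapped. Neither an order of the groups nor a fold can be given for it.

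The regions just upstream of Egfr, which rose in both colony types, and of Erbb2 and Tgfa, which fell in both, are shown to compare members that moved in opposite directions. Each is the 250 bases before the gene start in RefSeq's GRCm38.p6 promoter table, which held 7 of the 10 members: chr11:16751953-16752202 (Egfr), chr11:98412234-98412483 (Erbb2) and chr6:86194972-86195221 (Tgfa), all on the plus strand, 5′ to 3′. Capitals mark matches, on either strand, to the GC box (letters GGGCGG) or to the CCAAT box (that same run of letters). The TATA box (letters TATAAA) was searched as well. So was the AP-1 site (letters TGANTCA). Neither of these had a match in the 3 windows, and no matches overlapped.
Egfr: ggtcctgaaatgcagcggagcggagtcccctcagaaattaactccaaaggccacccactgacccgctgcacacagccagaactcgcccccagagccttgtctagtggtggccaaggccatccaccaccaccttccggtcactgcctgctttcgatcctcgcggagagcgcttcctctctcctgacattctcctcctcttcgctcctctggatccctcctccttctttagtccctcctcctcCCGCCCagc
Erbb2: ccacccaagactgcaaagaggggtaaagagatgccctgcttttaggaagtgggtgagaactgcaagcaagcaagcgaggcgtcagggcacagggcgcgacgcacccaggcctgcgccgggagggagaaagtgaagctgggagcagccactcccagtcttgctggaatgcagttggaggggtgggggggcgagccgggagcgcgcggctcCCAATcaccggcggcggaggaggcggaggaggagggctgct
Tgfa: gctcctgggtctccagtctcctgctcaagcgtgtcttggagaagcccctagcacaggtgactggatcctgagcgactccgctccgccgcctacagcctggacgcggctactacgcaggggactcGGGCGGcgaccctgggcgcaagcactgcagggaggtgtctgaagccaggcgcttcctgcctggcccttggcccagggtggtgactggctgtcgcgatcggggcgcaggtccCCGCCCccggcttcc
Egfr held 1 GC box, Tgfa 2 and Erbb2 none, while Erbb2 held the single CCAAT box. Among 32851 windows of this length, 32.7% held a GC box, 33.8% a CCAAT box, 12.4% the TATA box and 6.75% the AP-1 site. GC content was 60.8% for Egfr, 66.0% for Erbb2 and 69.2% for Tgfa, against a median of 52.4%, and the windows held 11, 16 and 19 CpG dinucleotides against a median of 6. Members that moved in opposite directions shared a GC and CpG content above these medians.

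Among the ligands, Ereg varied most. Epiregulin, its product, is a ligand of EGFR and ERBB4. GSC colony arrays read 11.04 and 10.43, sorted arrays 7.07 and 8.50, and PGC colony arrays 8.65 and 8.47. GSC colonies were above every other array, and the sorted pair was split, with replicate 1 under the 30th percentile and replicate 2 within the range of PGC colonies. Ereg rose by 2.95 ± 0.45 in GSC colonies relative to sorted cells (limma adjusted p = 0.0023), and by 2.23 to 3.66 when single arrays were left out. PGC colonies were lower than GSC colonies by a log2 difference of -2.17 ± 0.45 (adjusted p = 0.026). That call was lost without PGC colony replicate 1 (adjusted p = 0.098), without replicate 2 (adjusted p = 0.13), and with a plain floor in place of background correction (adjusted p = 0.057). PGC colonies and sorted cells differed by 0.77 ± 0.45, which did not pass (adjusted p = 0.22), by 1.49 without sorted replicate 2, which did (adjusted p = 0.011), and by 0.059 without sorted replicate 1 (adjusted p = 0.90).

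Tgfa encodes transforming growth factor alpha, the closest relative of EGF in receptor use. Deposited intensity was 845 and 952 on the sorted arrays, against 595 and 498 on GSC colony arrays and 473 and 597 on PGC colony arrays. The normalized log2 levels were 10.17 and 10.28 in sorted cells, 9.10 and 8.99 in GSC colonies, and 8.82 and 9.25 in PGC colonies. Sorted cells were higher than every colony array on both scales. Tgfa fell by 1.18 ± 0.16 in GSC colonies (limma adjusted p = 0.0015), and by 1.18 ± 0.16 in PGC colonies (adjusted p = 0.0015), and both calls held in all 16 other settings. The colony types overlapped, with a difference of -0.01 ± 0.16 and a 95% interval of -0.40 to 0.39.

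Hbegf, the gene of the heparin-binding ligand, read 11.53 and 11.52 in GSC colonies, 11.51 and 11.31 in sorted cells, and 11.81 and 11.61 in PGC colonies. The 3 groups stood in narrow, adjoining ranges. No comparison passed: relative to sorted cells the differences were 0.12 ± 0.13 in GSC colonies and 0.31 ± 0.13 in PGC colonies (limma adjusted p = 0.48 and 0.099), and 0.19 ± 0.13 between colony types. These depend on scaling. Without normalization between arrays they were 0.66 and 0.80 relative to sorted cells and passed, and with median centring the PGC colony difference of 0.41 passed (adjusted p = 0.033). Deposited intensity was 3296 to 3924 on colony arrays and 1978 to 2167 on sorted arrays.

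Egf itself, the gene of the factor added to the colonies, passed in no comparison as normalized. It read 9.05 and 8.97 in GSC colonies, 8.99 and 9.13 in sorted cells, and 8.69 and 8.87 in PGC colonies. GSC colonies and sorted cells overlapped, and PGC colonies lay slightly below both. The differences were -0.05 ± 0.12 for GSC colonies against sorted cells, with a 95% interval of -0.34 to 0.24, and -0.28 ± 0.12 for PGC colonies against sorted cells, with an interval of -0.57 to 0.01. Their limma adjusted p-values were 0.77 and 0.11, and both turned positive without normalization between arrays. There the GSC colony difference of 0.37 passed (adjusted p = 0.038), and the PGC colony difference was 0.12.

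Btc, the betacellulin gene, spanned 8.53 to 8.88 over all arrays, with sorted cells at 8.88 and 8.80, GSC colonies at 8.64 and 8.75, and PGC colonies at 8.76 and 8.53. Its differences of -0.15 ± 0.12 and -0.20 ± 0.12 relative to sorted cells did not pass (limma adjusted p = 0.38 and 0.25), and were 0.23 and 0.20 without normalization between arrays. Ereg and Btc lie on chromosome 5 in a run of consecutive protein-coding genes in the GRCm38.p6 gene table, in the order Epgn, Ereg, Areg and Btc, all EGF-family ligands. Epgn, the epigen gene, looked at here because it neighbours Ereg, measured 10.43 ± 0.06, 10.36 ± 0.11 and 10.13 ± 0.09 in GSC colonies, sorted cells and PGC colonies (SD, n = 2). It passed in no comparison, with 0.07 ± 0.12 for GSC colonies against sorted cells (adjusted p = 0.67), where Ereg rose.

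Counted over the family, 5 of the 8 tested members changed between GSC colonies and sorted cells, against 47.1% of all genes tested. Egfr and Ereg rose, where 22.5% of all genes did, and Tgfa, Erbb2 and Erbb3 fell, where 24.5% did. Between PGC colonies and sorted cells 3 of 8 changed, against 46% of all genes. Egfr was the member that rose (22.8% of all genes), and Tgfa and Erbb2 fell (23.2%). Between the colony types 1 of 8 changed, Ereg, which was lower in PGC colonies, against 15.1% of all genes called, 7.08% higher and 7.98% lower. With 8 members, the shares of 62.5%, 37.5% and 12.5% were near the background. The median difference of the members was -0.10, -0.22 and 0.09, beside -0.01, -0.02 and 0.01 for all genes. The first 2 comparisons share the sorted arrays. Of all calls, 47.9% and 49.5% were higher in GSC and PGC colonies than in sorted cells, and 82.5% and 80.5% without normalization between arrays.

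**Figure D2:**
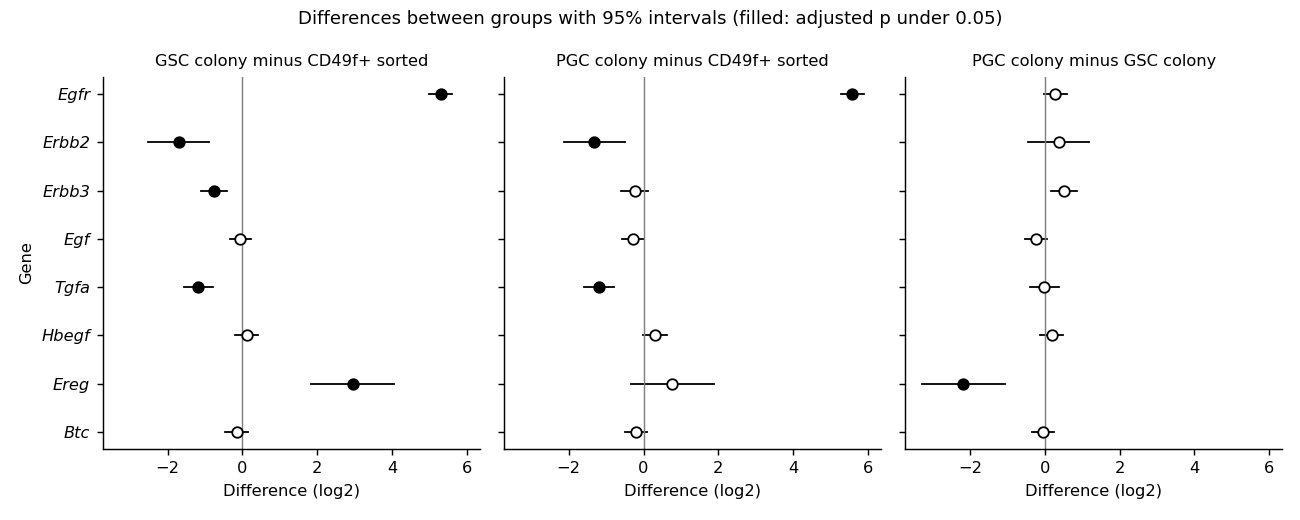
Log2 differences of the 8 tested members in each of the 3 comparisons, with 95% intervals from limma, and filled points where adjusted p was under 0.05. Egfr stood at 5.30 and 5.58 over sorted cells and at 0.29 between colony types, where Ereg, at -2.17, was the member that passed.

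The other genes of the pathway were counted over 5 lists with 75 entries, of which 69 had a named probe and 66 were tested. In GSC colonies relative to sorted cells 30 rose and 13 fell, and in PGC colonies 32 rose and 9 fell. Over all genes tested, 22.5% rose and 24.5% fell in GSC colonies, and 22.8% and 23.2% in PGC colonies. Between colony types 10 were higher in PGC colonies and 7 lower, where 7.08% and 7.98% of all genes were. Their median differences were 0.14, 0.38 and 0.10. Without normalization between arrays, where the median of all genes moved to 0.47 and 0.42 in the comparisons with sorted cells, the counts became 44 and 5, then 43 and 4.

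Of 4 tested further ligands, Nrg1 and Nrg2 rose in both colony types. Nrg1, a neuregulin that binds ERBB3 and ERBB4, read 10.92 and 10.99 in GSC colonies, 11.06 and 10.60 in PGC colonies, and 7.97 and 8.00 in sorted cells. It rose by 2.96 ± 0.17 and 2.84 ± 0.17 (limma adjusted p = 3.0e-05 and 3.9e-05). Nrg2 rose by 0.38 ± 0.11 in GSC colonies, a call lost in 6 of 15 other settings, and by 0.68 ± 0.11 in PGC colonies. Nrg3, like Erbb4, was under the 30th percentile on every array.

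Ligand shedding and trafficking genes rose in 6 of 10 cases in GSC colonies and in 6 of 10 in PGC colonies, against 22.5% and 22.8% of all genes. The list's medians were 1.15 and 0.78. Adam19, a membrane protease able to cleave neuregulins, led both, at 12.37 and 12.18 in GSC colonies, 11.60 and 11.81 in PGC colonies and 8.56 and 8.52 in sorted cells. It rose by 3.73 ± 0.13 and 3.16 ± 0.13 (limma adjusted p = 4.7e-06 and 1.0e-05). Timp3, a protease inhibitor gene of this list, rose by 1.60 ± 0.16 in GSC colonies. Adam17 and Adam10 were not called there, at -0.01 ± 0.14 and -0.27 ± 0.13 (adjusted p = 0.96 and 0.14). Adam12, another ADAM protease, rose by 2.25 ± 0.16 in GSC colonies, and Cd9, a tetraspanin that associates with HB-EGF precursor, rose by 2.15 ± 0.13 in PGC colonies. Both genes were among the 6 that rose in each colony type. Mean Adam12 in PGC colonies was 10.28, against 9.35 in sorted cells. Mean Cd9 in GSC colonies was 13.01 against 11.87, a rise of 1.14 ± 0.13 (limma adjusted p = 0.00056). Between colony types Cd9 was higher by 1.01 ± 0.13 in PGC colonies, and Adam12 and Adam9 fell by 1.32 ± 0.16 and 0.89 ± 0.13 there.

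Of 17 tested adaptors and kinases, 8 rose and 4 fell in GSC colonies, and 9 rose and 4 fell in PGC colonies, relative to sorted cells. The share that fell was near that of all genes, 24.5% and 23.2%, and 22.5% and 22.8% of all genes rose. Shc1, the adaptor that links activated receptors to GRB2, rose by 2.17 ± 0.12 and 2.12 ± 0.12, and by 2.32 and 1.94 on its other probe. Stat3, a transcription factor activated downstream of EGFR, rose by 2.36 ± 0.13 and 1.44 ± 0.13, and was lower in PGC than in GSC colonies at -0.92 ± 0.13 (limma adjusted p = 0.0061), the only one of the 17 called between colony types. Src, a cytoplasmic tyrosine kinase, fell by 1.64 ± 0.14 and 1.53 ± 0.14. Gab1, a docking protein, fell by 0.71 ± 0.12 in GSC colonies, with means of 10.73 there, 10.92 in PGC colonies and 11.44 in sorted cells. Sos2, a RAS exchange factor, fell by 0.67 ± 0.14 in GSC colonies and by 0.59 ± 0.14 in PGC colonies. The calls for Gab1 in GSC colonies and Sos2 in PGC colonies were lost without normalization between arrays, which left 1 falling gene in each comparison. The count of 4 in PGC colonies became 2 without sorted replicate 1, 1 without sorted replicate 2 and 2 without PGC colony replicate 1, and that in GSC colonies became 2 without sorted replicate 2.

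Of 19 feedback inhibitors and turnover genes, 9 were higher and 1 lower in GSC colonies, and 10 were higher in PGC colonies. The share called in either direction, 52.6% in both comparisons, was near that of all genes, 47.1% and 46%. By direction, 22.5% of all genes rose and 24.5% fell in GSC colonies, and 22.8% and 23.2% in PGC colonies. Rises were therefore more frequent in this list than among all genes, and falls less frequent. Errfi1 encodes MIG6, which binds and inhibits the EGFR kinase. It read 11.64 and 11.94 in GSC colonies, 10.18 and 10.49 in PGC colonies, and 9.35 and 9.47 in sorted cells, so that the 3 groups did not overlap. It rose by 2.38 ± 0.16 in GSC colonies and by 0.92 ± 0.16 in PGC colonies relative to sorted cells, and the colony types differed by -1.46 ± 0.16 (limma adjusted p = 0.0023).

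Dusp6, an ERK phosphatase induced by ERK itself, was lowest in GSC colonies. It read 12.93 and 12.87 there, 14.36 and 14.33 in sorted cells, and 14.22 and 13.93 in PGC colonies. The gene fell by 1.44 ± 0.13 in GSC colonies relative to sorted cells (limma adjusted p = 0.00023) and was higher by 1.17 ± 0.13 in PGC than in GSC colonies (adjusted p = 0.0024). Dusp4, a related phosphatase, was higher by 1.80 ± 0.14 in PGC colonies than in sorted cells and by 1.15 ± 0.14 than in GSC colonies. Spry1, a Sprouty inhibitor of receptor signalling, rose by 1.61 ± 0.17 in GSC colonies, and Lrig1, which promotes ErbB receptor turnover, rose by 1.79 ± 0.16 in PGC colonies. Mean Spry1 in PGC colonies was also above sorted cells, at 10.12 against 8.79. So was mean Lrig1 in GSC colonies, at 12.69 against 11.55. Cblb, a ubiquitin ligase gene, fell by 0.58 ± 0.10 in PGC relative to GSC colonies, a call lost without either GSC colony array. Between the colony types 5 of the 19 were higher and 2 lower in PGC colonies, where 7.08% and 7.98% of all genes were. Leaving out either GSC colony array lowered both counts.

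Of 16 tested transcriptional targets of ERK signalling, 5 rose and 8 fell in GSC colonies relative to sorted cells, where 22.5% and 24.5% of all genes did. In PGC colonies 5 rose and 5 fell, near the 22.8% and 23.2% of all genes. Myc, a growth-promoting transcription factor, rose by 1.94 ± 0.14 and 2.33 ± 0.14, and Plaur, the urokinase receptor gene, rose by 1.42 ± 0.11 and 2.25 ± 0.11. The AP-1 gene Jun fell by 1.60 ± 0.12 and 1.34 ± 0.12, Fos fell by 1.39 ± 0.16 in GSC colonies, and Ier3, an immediate early gene, fell by 1.36 ± 0.11 in PGC colonies. Means of the other colony type were also below sorted cells. They were 14.80 against 16.06 for Fos in PGC colonies, and 13.52 against 14.68 for Ier3 in GSC colonies. The 8 falling genes became 3 without normalization between arrays and 5 with median centring or without either sorted array, and the list's median of -0.36 became 0.34 without normalization. Immediate early genes are also known to respond to tissue dissociation, which the sorted cells underwent without later culture. This difference in handling cannot be told apart from the others. Between colony types Phlda1, an ERK-responsive gene, was higher by 1.58 ± 0.10 in PGC colonies (1.74 on its other probe), and the transcription factor gene Egr2 by 1.01 ± 0.13. Fosl1, another AP-1 gene, fell by 0.47 ± 0.12 (limma adjusted p = 0.049), a call lost in 10 of 16 other settings.

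**Figure D3:**
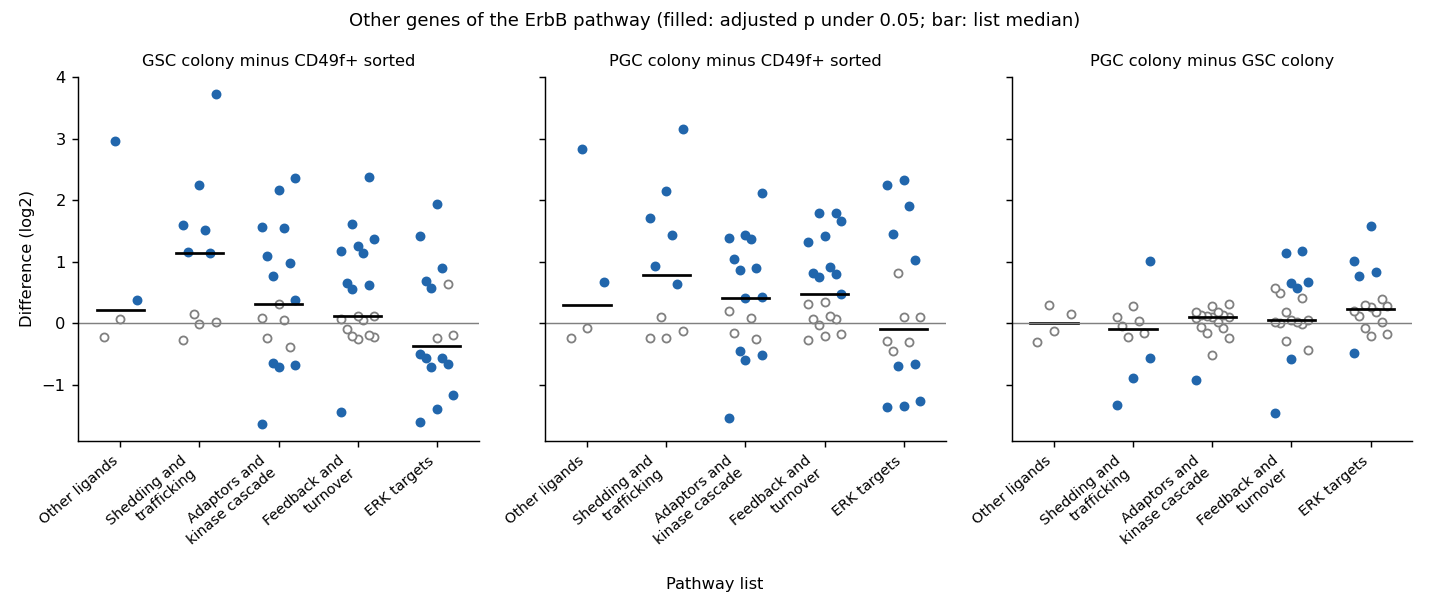
Log2 differences of the 66 tested pathway genes by list in each of the 3 comparisons, with filled points where adjusted p was under 0.05 and bars at list medians. In both comparisons with sorted cells, 6 of 10 shedding and trafficking genes rose, whereas ERK targets lie on both sides of 0.

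Markers of cell types moved with these differences. Of all genes tested, 22.5% rose and 24.5% fell in GSC colonies, and 22.8% and 23.2% in PGC colonies. The summed normalized intensity of 12 fibroblast and mesenchyme genes was 726245 to 730529 in GSC colonies, 515435 to 530701 in PGC colonies and 131180 to 148377 in sorted cells, and 10 of 11 tested rose in each colony type, as Egfr did. Vim was the tested gene not called in either colony type. It was the brightest of the 12 in sorted cells, at a mean of 16.80, and so weighed most in the sorted sum. Col1a1 was under the 30th percentile on both arrays of every group. Sums of 12 macrophage and leukocyte genes ran the other way, at 3501 to 3737, 8292 to 8632 and 135594 to 142411, and all 11 tested fell in both colony types. In GSC colonies 6 of these 12 genes were under the 30th percentile on both arrays, among them Adgre1 and C1qb. Epithelial genes summed to 5901 to 7521, 7295 to 7358 and 17808 to 17864, and 4 of 8 fell in GSC colonies and 5 of 8 in PGC colonies. Sertoli cell genes fell in 13 of 14 and 14 of 14 cases, with sums of 307047 to 312895, 234695 to 259971 and 1009720 to 1064700. Clu was the brightest of the 14 in every group, at means of 17.76, 17.45 and 18.09, and so weighed most in each sum. It was the gene not called in GSC colonies, at -0.33 ± 0.11 (limma adjusted p = 0.0504). The part of these lists in the differences of Egfr, Erbb2, Erbb3, Tgfa and Ereg was not tested.

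Other lists differed as well. Peritubular myoid genes summed to 75634 to 76379 in GSC colonies, 36979 to 38792 in PGC colonies and 5308 to 5399 in sorted cells. Relative to sorted cells all 4 tested rose in GSC colonies, and 3 rose and 1, Myh11, fell in PGC colonies. Acta2 was the brightest of the list in PGC colonies, at a mean of 15.12, and so weighed most in that sum. Cnn1 was under the 30th percentile on both arrays of every group. In GSC colonies, PGC colonies and sorted cells, endothelial genes summed to 18571 to 18687, 8020 to 8472 and 49579 to 52324. Leydig cell genes, in that order, summed to 23701 to 24504, 21619 to 21743 and 77602 to 81031. Of 5 tested Leydig cell genes, 3 fell and 1, Star, rose in GSC colonies relative to sorted cells, and 3 fell in PGC colonies. Cyp11a1 was called in neither. Of the 8 endothelial genes, 7 fell and 1, Emcn, rose in GSC colonies relative to sorted cells, and all 8 fell in PGC colonies. Emcn was the brightest of the 8 in GSC colonies and so weighed most in that sum. It measured 13.60 ± 0.02 there and 10.83 ± 0.06 in PGC colonies (SD, n = 2). Germ cell genes summed to 10550 to 11120, 6089 to 6344 and 9155 to 9259. Relative to sorted cells, 5 of 9 tested rose and 2 fell in GSC colonies, and 4 of 9 fell in PGC colonies. The shares of all genes were 22.5% rising and 24.5% falling in GSC colonies, and 22.8% and 23.2% in PGC colonies.

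**Figure D4:**
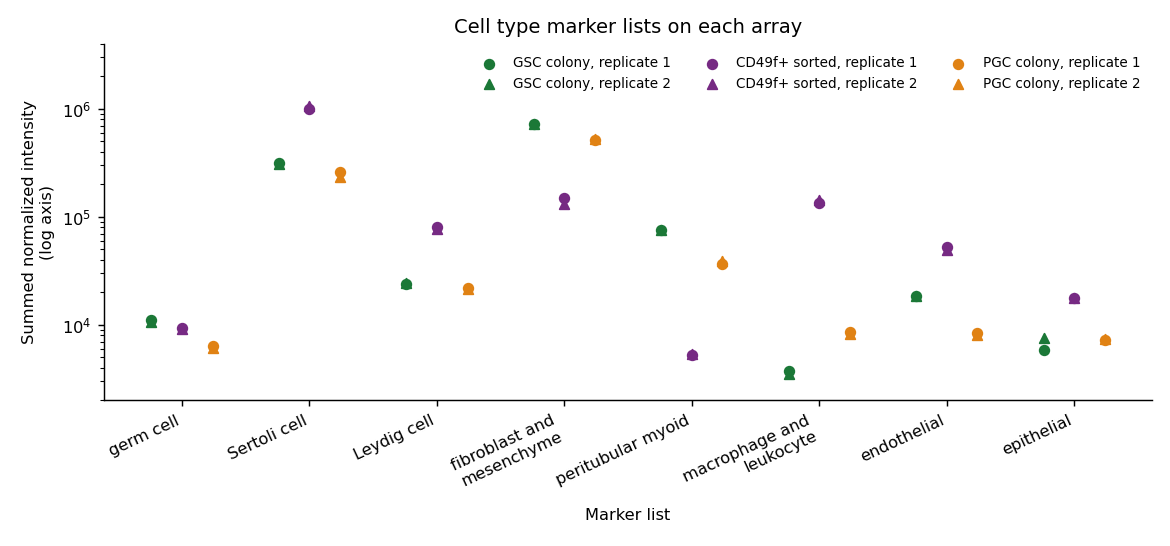
Summed normalized intensity (log axis) of 8 cell type marker lists on each of the 6 arrays. Fibroblast and myoid sums were higher on all colony arrays than on sorted arrays, and Sertoli, Leydig, macrophage, endothelial and epithelial sums were lower.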

How the data were processed

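Total RNA (1 µg per array, RNA integrity number of at least 6 per the labels) was amplified and labelled with Cy5, 1 sample per array. The authors' deposited values are linear probe intensity, below 0 for 52 to 474 probes on 4 arrays. The sources used here name neither background method nor scaling. Of 26423 probes, 21876 carried 1 gene symbol, 0 several and 4547 none. Normexp background correction (offset 50), log2 and quantile normalization between arrays were applied to the deposited values. The probe with the highest mean stood for each of 19084 genes, and 15459 had at least 2 arrays at or above the 30th percentile (7.82 on the log2 scale). No detection calls were used. A single limma fit (version 3.58.1, R 4.3.3) covered the 6 arrays together (3 residual degrees of freedom), with Benjamini-Hochberg adjustment over all genes tested and a threshold of 0.05. The labels do not say whether arrays of a group are separate preparations, so the p-values reflect just the array-to-array spread, possibly technical. Precision is limited by having 2 arrays per group.

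Members, lists and tests were chosen with earlier results of these data known. All members were named, and from each pathway list and comparison up to 2 genes with the largest rise and 2 with the largest fall among called genes whose groups did not overlap. Alternatives covered background correction, scaling, filter, probe choice, fit and single arrays.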

Additional observations from a re-analysis of the deposited data

How the results depend on the processing

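The calls for Egfr and Tgfa against sorted cells, and for Ereg and Erbb2 in GSC colonies against sorted cells, held in all 16 other settings. Of 40 further results on pathway genes, 35 held in every setting, 5 were lost in at least 1 and 0 reversed.

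Without normalization between arrays, differences from sorted cells that had not passed turned positive: 0.37 for Egf, which then passed (limma adjusted p = 0.038), and 0.23 for Btc in GSC colonies, and 0.12, 0.20 and 0.15 for Egf, Btc and Erbb3 in PGC colonies. The difference in Tgfa between colony types became 0.0050 with median centring. When single arrays were left out, it ran from -0.22 to 0.21, that of Btc from -0.16 to 0.066 and that of Erbb2 from -0.080 to 0.84, and Egf in GSC colonies against sorted cells ran from -0.12 to 0.019.

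Between colony types the count of members called by limma, 1 as reported, was 0 with a plain floor of 16 and 0 with the replicate block (Ereg, adjusted p = 0.053), while 2 had an unadjusted p under 0.05 in either setting. Leaving out single arrays gave 0 to 1 members and 1483 to 2093 genes, the lowest without GSC colony replicate 1. The cause was not tested. Replicate numbers did not pair the arrays: correlations of the replicate differences between groups were -0.34, -0.18 and 0.33. The block gave 6804, 6637 and 1707 called genes in place of 7279, 7111 and 2329. Each left-out array leaves 1 in its group, which is assumed to vary like the other groups.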
